A study of Mus musculus with 24 samples.

Results

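The scattered intronic peaks of the STAU2 lists are peaks whose midpoint lies inside a gene of the same strand but in no exon of that strand, in a host gene that holds fewer than 10 such peaks on that day. Of the 29007 peaks in the 8 deposited lists, 5988 met that rule, in 2756 host genes, of which 2642 were protein-coding. A further 3809 intronic peaks lay in hosts with 10 or more on the day, and 16973 peaks had their midpoint in an exon. Members were thus chosen by the positions of the listed peaks and their number per host and day, so counts of members and their place outside exons are descriptions and carry no test. STAU2 was pulled down from mouse embryonic cortex together with the RNA it held (RNA immunoprecipitation, RIP), and this RNA was sequenced, as was the RNA of the starting lysate, called input. The labels give 24 libraries in 8 groups: RIP and input, 3 libraries each, on embryonic days 11.5, 13.5, 15.5 and 17.5 (written E11.5 and so on). They name no strain, genotype or treatment. Each replicate started from the cortices of a whole litter, pooled, so every group mixes the cell types of the cortex and the tissue around it. Control pulldowns with a T7 antibody were read by qPCR only, per the labels, and are not analysed here, so a peak stands against input alone. Each day has 1 list per strand behind its 6 libraries, and no library has values of its own, so no spread between replicates can be given and the sequencing depth is unknown.

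STAU2 is a protein that binds double-stranded RNA and takes part in the transport, stability and translation of messenger RNAs in neurons and in the dividing cells of the cortex. Introns are cut out of the transcript in the nucleus when its exons are joined, so RNA that still holds intron sequence is unspliced, partly spliced, or an intron that was retained. In sequencing of total RNA, an RNA molecule that is already spliced holds the end of one exon next to the start of the next, although the exons lie an intron apart in the genome.

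The name scattered intronic fits only some of these peaks. Gene models were those of GENCODE vM21 on GRCm38, and each member was sorted by where its ends lay. Of the 5988 members, 2881 (48.1%, 95% exact binomial interval 46.8 to 49.4) touched no same-strand exon and are called wholly intronic here. Another 1874 (31.3%, 30.12 to 32.5) began in an exon and ended in another, with the midpoint in the intron between, and are called exon-to-exon peaks. A further 1199 (20.02%) had 1 end in an exon, and 34 (0.57%) held a whole exon with both ends in introns. This sorting was chosen after the values had been seen. Intervals here and below cover the counting of peaks and not the spread between animals or libraries.

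The exon-to-exon kind was close to absent from the dense hosts. Among the 3809 intronic peaks of hosts with 10 or more, 10 (0.26%) ran from exon to exon and 3697 (97.1%) were wholly intronic. The rule itself bears on this contrast, since dense hosts are chosen by their number of intronic peaks. Exon-to-exon members averaged 1.09 to 1.12 per host and day, so they seldom bring a host to 10. The 16973 peaks with the midpoint in an exon are outside the kind by its definition. Of these, 252 (1.49%) touched more than 1 exon stretch, a share that the sorting by midpoint bears on.

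The joined exonic bases of some exon-to-exon members show which sequence these peaks hold once the crossed intron is left out. For each day the 3 members with the smallest deposited p were taken that crossed a single annotated intron, lay in coding sequence of 1 transcript and held 30 to 300 exonic bases. Rexo2, whose peaks crossed the same intron on 4 days, was added. The bases are read 5′ to 3′ from the GENCODE vM21 transcript. Capitals mark up to 6 bases on each side of the junction between both exons, and the coordinates give the whole peak on GRCm38 with the intron. Both choices were made with the values known.

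Hcfc1 at E11.5, chrX:73955286-73955471 (minus strand): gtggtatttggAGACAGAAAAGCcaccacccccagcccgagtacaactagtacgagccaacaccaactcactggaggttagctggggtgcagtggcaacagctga
Mafg at E11.5, chr11:120629715-120629846 (minus strand): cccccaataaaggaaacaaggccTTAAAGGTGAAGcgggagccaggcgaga
Mta1 at E11.5, chr12:113130122-113130563 (plus strand): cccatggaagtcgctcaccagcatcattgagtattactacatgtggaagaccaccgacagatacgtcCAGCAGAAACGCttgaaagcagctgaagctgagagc
Taok3 at E13.5, chr5:117263770-117265930 (plus strand): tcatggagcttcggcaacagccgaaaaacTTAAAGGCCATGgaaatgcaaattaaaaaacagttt
Supt5 at E13.5, chr7:28316057-28316440 (minus strand): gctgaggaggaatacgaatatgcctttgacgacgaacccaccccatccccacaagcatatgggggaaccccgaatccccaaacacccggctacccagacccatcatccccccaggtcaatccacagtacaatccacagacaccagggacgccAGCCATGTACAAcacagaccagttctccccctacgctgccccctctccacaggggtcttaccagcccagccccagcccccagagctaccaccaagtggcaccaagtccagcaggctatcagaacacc
Atn1 at E13.5, chr6:124743839-124744783 (minus strand): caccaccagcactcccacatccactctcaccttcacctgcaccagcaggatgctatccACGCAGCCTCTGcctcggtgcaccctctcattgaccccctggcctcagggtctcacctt
Zfp747 at E15.5, chr7:127374698-127375418 (minus strand): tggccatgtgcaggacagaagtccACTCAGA
Ftsj1 at E15.5, chrX:8245431-8245585 (minus strand): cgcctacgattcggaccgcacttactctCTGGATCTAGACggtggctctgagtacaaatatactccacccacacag
Dtnbp1 at E15.5, chr13:44992033-44993692 (minus strand): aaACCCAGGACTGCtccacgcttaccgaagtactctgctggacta
Cfap298 at E17.5, chr16:90927475-90929935 (minus strand): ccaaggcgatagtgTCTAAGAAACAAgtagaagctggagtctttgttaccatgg
Zfand6 at E17.5, chr7:84615833-84617917 (minus strand): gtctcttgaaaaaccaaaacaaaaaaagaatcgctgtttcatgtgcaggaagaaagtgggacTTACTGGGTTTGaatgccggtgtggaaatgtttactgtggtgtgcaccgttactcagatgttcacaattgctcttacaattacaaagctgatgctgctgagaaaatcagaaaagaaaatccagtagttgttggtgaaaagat
Ift88 at E17.5, chr14:57507222-57517015 (plus strand): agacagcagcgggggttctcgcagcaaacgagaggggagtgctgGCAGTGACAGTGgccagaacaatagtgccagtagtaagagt
Rexo2 at E17.5, chr9:48475145-48479356 (minus strand): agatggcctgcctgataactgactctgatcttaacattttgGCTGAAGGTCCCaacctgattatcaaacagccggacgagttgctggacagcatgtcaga

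The share of the width that was exonic varied among these peaks, whose number of exonic bases was bounded by their choice. The Ift88 peak, in a gene of transport within cilia, spanned 9794 bp for 85 exonic bases and crossed an intron of 9709 bp. The Taok3 peak, in a kinase gene, spanned 2161 bp for 65 exonic bases. The Supt5 peak spanned 384 bp for 279 exonic bases, and the Hcfc1 peak 186 bp for 105. The Zfp747 peak, in a zinc finger gene, had 30 bases before the junction and 1 base after it, while the Hcfc1 peak, in a gene for a transcriptional coregulator, had 17 before and 88 after. The Dtnbp1 peak had 8 before and 37 after, and the Taok3 peak 35 and 30. The junction thus lay near either end or near the middle. The GC content of the printed sequences ran from 38.5% in Taok3 to 61.5% in Atn1.

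No sequence is printed for wholly intronic members, since the sequences used here cover exons.

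The shares of both main kinds differed between the days, in opposite directions. Wholly intronic members at E11.5 numbered 1112 of 6530 peaks (17.0%, 16.1 to 17.96), then 501 of 5871 (8.53%, 7.83 to 9.28), 910 of 10265 (8.87%, 8.32 to 9.43) and, at E17.5, 358 of 6341 (5.65%, 5.09 to 6.24). Exon-to-exon members numbered 271 (4.15%, 3.68 to 4.66), 341 (5.81%, 5.22 to 6.44), 712 (6.94%, 6.45 to 7.45) and 550 (8.67%, 7.99 to 9.39) on the same days. The wholly intronic share was thus highest at E11.5 and lowest at E17.5, with overlapping intervals on the days between, while the exon-to-exon share had its lowest value at E11.5 and its highest at E17.5. As a share of the members, wholly intronic peaks made up 65.0%, 46.9%, 43.5% and 32.1% from E11.5 to E17.5, and exon-to-exon peaks 15.8%, 31.9%, 34.1% and 49.2%. Members with 1 end in an exon made up between 18.3% and 21.8%.

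**Figure D1:**
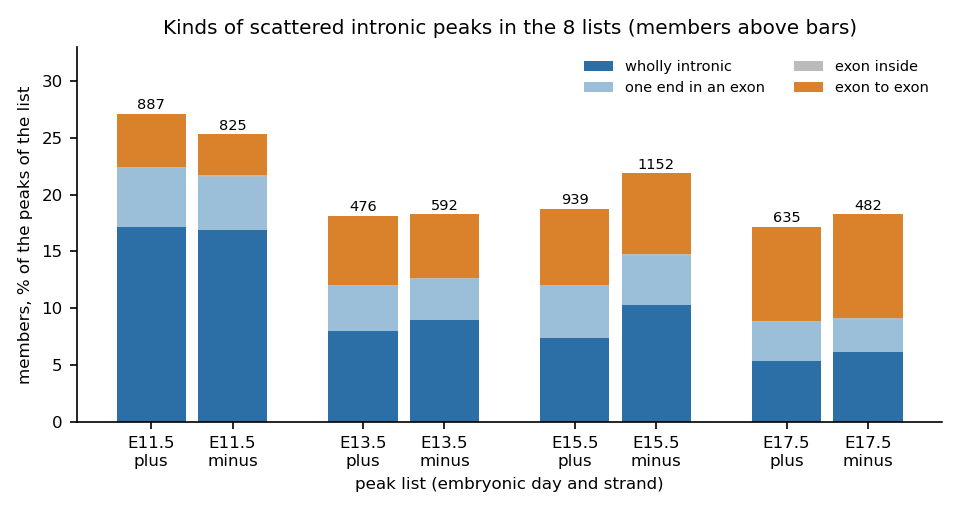
Members as a percentage of the peaks of each of the 8 lists (y axis) by embryonic day and strand (x axis), stacked by kind, with the number of members above each bar. In both strand lists the wholly intronic share is highest at E11.5 (17.2% and 16.9%) and the exon-to-exon share highest at E17.5.

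In both strands the wholly intronic share was highest at E11.5 and lowest at E17.5, and the exon-to-exon share the reverse. On the days between, the wholly intronic share was 7.99% and 7.38% in the plus lists and 8.97% and 10.28% in the minus lists, so the strands differed in the order of these days. Wholly intronic members held 17.2% of the plus list and 16.9% of the minus list at E11.5, and 5.32% and 6.10% at E17.5. Exon-to-exon members held 4.68% and 3.62% at E11.5, and 8.315% and 9.18% at E17.5. The strands of a day come from the same libraries, so they are no replicates. The lists differ in how much of the tested material they hold: from the form of the deposited q-values, 21.9%, 19.3%, 37.3% and 36.4% of the candidate regions were listed on the 4 days in order. The part of that difference in the shares was not tested. In lysate of pooled cortex, fewer cells of a type and less RNA per cell cannot be told apart.

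Read over all members, the scattered intronic share of a list was 26.2%, 18.2%, 20.4% and 17.6% on the 4 days in order. Hosts numbered 841, 670, 1219 and 811 on these days, and 59.5% to 77.3% of them held 1 intronic peak on the day. Exon-to-exon members came mostly alone: 455 of their 500 hosts at E17.5 held 1. Wholly intronic members shared a host more often, though most of their hosts also held 1: 283 of 501 at E11.5 and 160 of 226 at E17.5. Their mean per host was 2.22 at E11.5 and 1.58 at E17.5.

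The limit of 10 peaks cut through a continuous range of hosts. With 9 intronic peaks, just inside, stood Asxl3 and Ipo9 at E11.5 (median deposited signal 13.3 and 16.1), Cdadc1 and Gtdc1 at E13.5 (8.70 and 20.2), and Adgrv1 and Aftph at E15.5 (15.6 and 6.98). With 10, just outside, stood Clasp1 and Ift43 at E11.5 (13.8 and 18.5), Cep112 and Fbxw11 at E13.5 (4.65 and 7.47), Rgs3 and Wdyhv1 at E15.5 (7.21 and 8.40), and C2cd5 and Nfxl1 at E17.5 (9.04 and 7.60). No host held exactly 9 at E17.5.

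The deposited signal, the authors' positive value per peak, set both kinds apart as well. Its median over wholly intronic members was 12.2, 7.59, 9.30 and 8.71 from E11.5 to E17.5. Over exon-to-exon members it was 76.9, 43.5, 35.0 and 34.5. Peaks with the midpoint in an exon had medians of 42.3, 28.3, 28.0 and 29.5, so the exon-to-exon members lay above the exonic peaks in the middle of their range and the wholly intronic members below. The rank by deposited p differed less: the median member stood at percentile 58.1, 50.9, 68.1 and 61.8 of its day when wholly intronic, and at 48.3, 52.5, 52.6 and 52.7 when exon to exon, where a low percentile is a strong peak.

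The commonest width of wholly intronic members was 50 bp, near the narrowest width listed. Of the wholly intronic members, 841 (29.2%) were exactly 50 bp wide, and 1748 (60.7%) were at most 100 bp. The narrowest peak of any class was 48 bp. Peaks with the midpoint in an exon were exactly 50 bp wide in 9.93% of cases. Exon-to-exon members had a median width of 821 bp with a median of 86 exonic bases, a median of 13.6% of the width. Their commonest sum of exonic bases was also 50, but in only 57 members (3.04%), with 108 members at 48 to 50. In 440 of 1874 (23.5%) the exonic bases numbered fewer than 48.

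**Figure D2:**
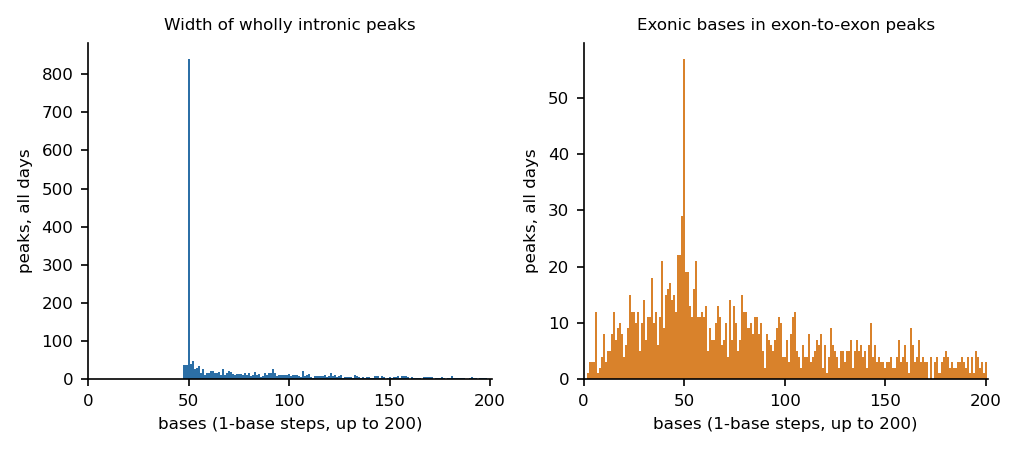
Number of peaks over all days (y axis) by width for wholly intronic members (left) and by exonic bases for exon-to-exon members (right), in steps of 1 base up to 200 (x axis). Both histograms have their highest bar at 50 bases, with 841 and 57 peaks.

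Most exon-to-exon members crossed 1 exon-free stretch that was an annotated intron. Of the 1874, 1632 (87.1%) crossed 1 such stretch, and in 1389 of these (85.1%) its ends matched an annotated intron base for base. The other 242 crossed 2 or more. The crossed stretch had a median length of 535 bp and exceeded 10000 bp in 30 members. The product of the deposited signal, 3 libraries and the full width was a whole number of thousandths, within 0.001, in 100% of the members that crossed 1 stretch. With the exonic bases in place of the width it was whole in 1.04%. By this arithmetic the deposited signal is a value per base of the full width, intron included. The lists give the outer ends of a peak and no inner blocks, so whether the crossed intron carried reads was not tested.

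The midpoints lay accordingly. In 74.5% (72.5 to 76.5) of exon-to-exon members, and in 23.4% (21.8 to 24.9) of wholly intronic members, the midpoint was in the middle 20% of the intron. The exon-to-exon value follows in part from the kind itself, since both ends lie in exons. Wholly intronic midpoints spread along the intron, with 12.4% of them between 40% and 50% of its length from the 5′ end, 8.30% in the first 10% and 4.41% in the last 10%. Peaks that touch no exon cannot have midpoints right at the intron ends, so the lower values there follow in part from this kind too.

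**Figure D3:**
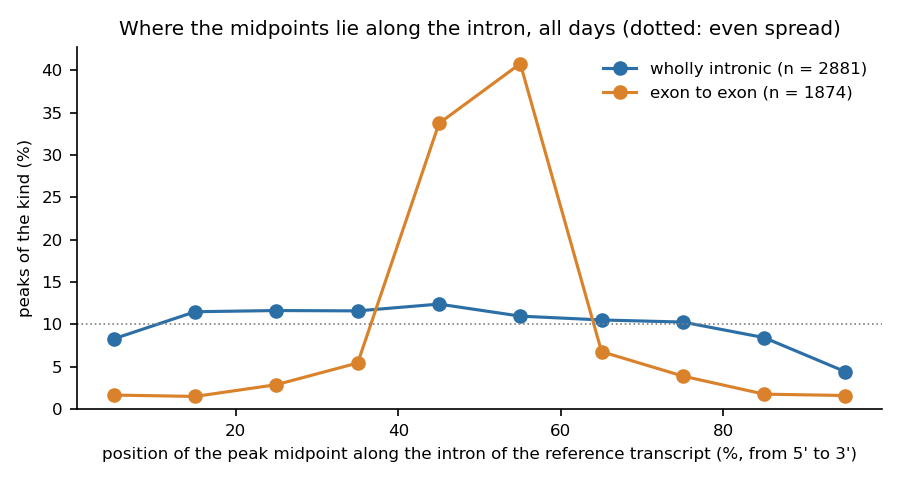
Percentage of the peaks of a kind (y axis) by position of the midpoint along the intron of the reference transcript, in 10 equal steps from the 5′ to the 3′ end (x axis), over all days, with an even spread dotted. Exon-to-exon midpoints pile up around the centre of the intron, while wholly intronic midpoints run near the even level and are lowest in the last step. Both shapes follow in part from the sorting into kinds.

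First introns held a smaller share of members than of intron bases. The reference was the longest coding transcript with the midpoint in an intron, and the level by length is the mean share of the host's exon-free intron bases that lies in the first intron. Of wholly intronic members in hosts with more than 1 intron, 305 of 2792 (10.9%, 9.79 to 12.1) lay in the first intron, where 23.1% of those bases lie. By day the share was 10.9%, 8.16%, 11.01% and 14.6%, against 26.1%, 22.0%, 20.7% and 21.7% by bases. The share lay below the level by bases on each of the 4 days. Of exon-to-exon members, 112 of 1863 (6.01%, 4.98 to 7.19) had their midpoint in the first intron, which held 25.8% of the bases. These peaks span at least 1 whole exon-free stretch, so they are not placed base by base. The share of bases is therefore no level for even placement of this kind. The reference transcripts of these members had a median of 11 introns.

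Last introns held a larger share of members than of intron bases. Of wholly intronic members, 379 of 2792 (13.6%, 12.3 to 14.9) lay in the last intron, against 7.77% by bases. The share was 9.90%, 10.9%, 17.5% and 18.7% from E11.5 to E17.5, above the level by bases on each day. Of exon-to-exon members, 394 of 1863 (21.1%, 19.3 to 23.1) had their midpoint in the last intron, with 15.7%, 19.4%, 22.0% and 23.9% by day. The last intron held 8.73% of the bases, which is again no level for even placement of this kind. Peaks of a host are not independent and often lie in the same intron, so no test was made. The intervals for first and last introns count each peak as independent and can be too narrow. The first-intron share differed most between the kinds at E17.5, with 14.6% for wholly intronic and 3.097% for exon-to-exon members.

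**Figure D4:**
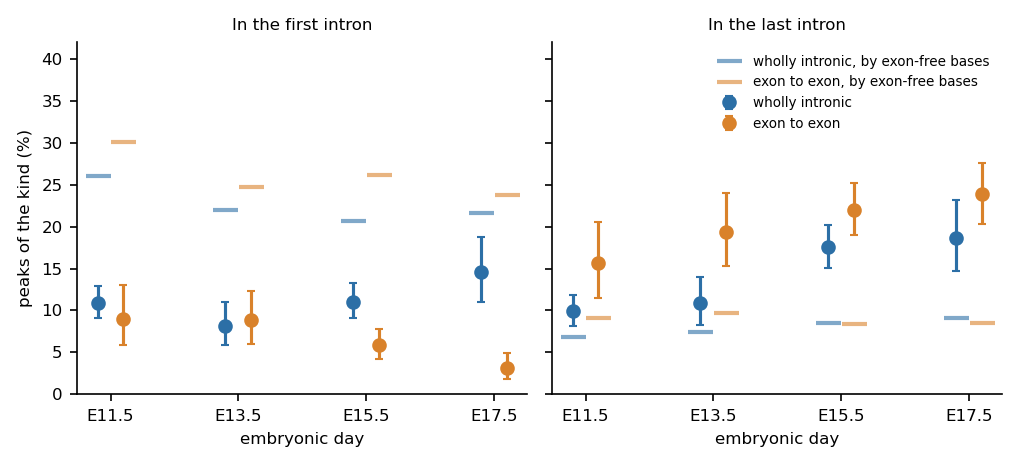
Percentage of peaks in the first intron (left) and the last intron (right) of the reference transcript (y axis) by embryonic day (x axis), as points with 95% exact binomial intervals for both kinds, with the share of exon-free intron bases there as horizontal marks. On each day the points lie below the marks for the first intron and above them for the last intron. Exon-to-exon peaks span whole introns, so for them the marks are no level for even placement.

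Wholly intronic members lay about as close to exons as even placement along the same stretch would put them. Within 500 bp of a same-strand exon lay 1072 of 2881 midpoints (37.2%, 35.4 to 39.00), where 37.5% would be reached by placing each peak evenly along its exon-free stretch. By day the values were 33.4%, 36.9%, 39.6% and 43.6%, against 35.6%, 36.4%, 38.8% and 41.8%. The level by even placement was thus also lowest at E11.5 and highest at E17.5. The median distance was 690 bp, and 147 members (5.10%) had an edge within 50 bp of an exon. The exon upstream was the nearer one for 57.3% (55.5 to 59.1), and for 55.1%, 55.9%, 61.0% and 56.7% by day. Over all members, the share within 500 bp was 46.3%, 55.6%, 56.8% and 62.7%, which mixes the kinds.

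Where a host held 2 or more wholly intronic peaks on a day, they mostly lay in 1 intron. Of 564 pairs of host and day with 2 or more such members, 494 (87.6%, 84.6 to 90.2) had all of them in the same intron, and the share was 84.9%, 96.8%, 84.3% and 92.4% by day. No level by intron length was set beside this share, and peaks with the same signal and p count as separate members. The median wholly intronic peak covered 2.77% of its intron, and 33 (1.15%) covered over 50%. Of the 2881, 358 (12.4%) carried the same deposited signal and p as another peak of their list, 299 of them as a peak of the same intron. Among exon-to-exon members 2 did so, among the peaks of dense hosts 1045 of 3809 (27.4%), and among exonic peaks 184 of 16973 (1.08%). Ptcd2, a mitochondrial RNA-processing gene, shows the pattern: 3 peaks of 50 bp in its intron 6 at E11.5 each had signal 13.7 and rank 51.

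The strongest wholly intronic members stood near the top of the day's list with modest signals. At E15.5 the peak with the smallest deposited p of the whole day was one of them, a 78 bp peak in intron 5 of 18 of Prkd3, a protein kinase gene, with signal 6.14 (chr17:78978917-78978994, 2780 bp from the nearest exon). At E13.5, Ddhd2, a phospholipase gene, held rank 5 with a 210 bp peak in intron 11 (signal 8.97), and Pprc1, a transcriptional coactivator gene, rank 9 with a peak 65 bp from an exon (signal 5.98). At E11.5, Taf1, which encodes the largest subunit of the general transcription factor TFIID, held rank 20 with a 99 bp peak in intron 23 of 40 (signal 12.98) among 7 members. Ino80, a chromatin remodeler gene, had peaks in its intron 23 at ranks 54 and 58 of E15.5, each with signal 13.5. At E17.5 the strongest were Pi4ka, a lipid kinase gene, at rank 87 (signal 11.2, intron 43 of 54), and Polr2h, an RNA polymerase subunit gene, at rank 108 (signal 6.05, its last intron).

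The strongest exon-to-exon members varied in signal, from values like those of wholly intronic members to far higher ones. Hcfc1 at rank 88 and Mafg at rank 147 of E11.5 had signals of 15.3 and 14.6, and Zfp747 at rank 49 and Ftsj1 at rank 82 of E15.5 had 15.2 and 14.1. Pdia3, an endoplasmic reticulum disulfide isomerase gene, held rank 49 of E11.5 with a peak over 3 exon stretches and signal 286. Taok3 held rank 7 and Supt5, a transcription elongation factor gene, rank 10 of E13.5 with signals 27.0 and 40.6. Ube2q1, a ubiquitin-conjugating enzyme gene, held rank 27 of E15.5 (signal 70.7, last intron of 12). Celf3, an RNA-binding splicing regulator of neurons, held rank 53 of E17.5 (signal 64.6, 588 exonic bases), and Wasf1, which drives actin branching, rank 67 (signal 38.2).

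With 1 end in an exon, Daam1, a formin of the actin cytoskeleton, held rank 40 of E11.5 (signal 10.7, 6 exonic bases), and Pole2, a DNA polymerase subunit gene, rank 77 of E17.5 (signal 3.64). Among the 5 members with the smallest p of their day were also the wholly intronic peaks of P4htm, at rank 12 of E13.5 (signal 5.08), and of Cwc22, a spliceosome gene, at rank 53 of E15.5 (signal 32.8).

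A few members had signals far above the rest. Over 1000 stood 23 of 2881 wholly intronic members (0.80%), 12 of 1874 exon-to-exon members (0.64%) and 165 of 16973 exonic peaks (0.97%). The highest were a 78 bp peak in intron 14 of Spata5 at E13.5 (68600), which an overlapping peak of E17.5 matched with 42800, and peaks in the first intron of Il31ra (50740 at E11.5, then 13700 and 13040 on the last 2 days). A peak in the first intron of Kcnip1, a potassium channel partner gene, had 50010 at E13.5 and 24710 at E17.5, 88117 bp and 88026 bp from the nearest exon. High signal and small p did not go together throughout: Spata5 held rank 44 of E13.5 and 5702 of E17.5, Kcnip1 rank 237 and 4493, and Il31ra 2849, 861 and 2325. These genes were singled out after their values were seen.

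Few wholly intronic members came back on another day. A peak of another day overlapped 195 of 2881 (6.77%, 5.88 to 7.75) by at least 1 bp, against 578 of 1874 exon-to-exon members (30.8%, 28.8 to 32.99), 298 of 3809 peaks of dense hosts (7.82%) and 5308 of 16973 exonic peaks (31.3%). Exon-to-exon peaks are wide, so more bases of them can be met: 191 of the 1632 with 1 crossed stretch (11.7%) had a peak of another day that crossed the same stretch. For wholly intronic members the value was 6.39%, 7.19%, 5.82% and 9.78% by day. Hosts were also shared between days: 122 genes hosted exon-to-exon members at both E15.5 and E17.5 (19.2% of 635 and 24.4% of 500), and 32 hosted wholly intronic members on both days (7.22% of 443 and 14.2% of 226). Over the 6 pairs of days, the shared hosts numbered 26 to 122 for exon-to-exon and 19 to 55 for wholly intronic members.

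At 28 positions members of 3 or more days overlapped, and 15 of these were exon to exon on each day. Rexo2, which encodes an exonuclease for short RNAs in mitochondria, had on all 4 days a peak across its intron 2 of 6, 4112 bp long. Its signals were 235, 137, 112 and 138 on the 4 days in order. Its exonic bases numbered 71, 68, 68 and 100, so the same junction was met with slightly different ends. Mfap2, a microfibril component gene, had signals of 76.1, 510, 392 and 126 on the 4 days. Its peaks were 434, 3689, 461 and 3173 bp wide, with midpoints in introns 3, 1, 3 and 1. Pdia3 had 286, 525, 371 and 148, and its peak of E13.5 had only 1 end in an exon. Its peaks were 1710, 3474, 1529 and 410 bp wide, with midpoints in introns 12, 10, 10 and 11. The signals of these 2 genes thus belong to unlike stretches and do not compare the days. Gtf2e2, a general transcription factor gene, met its last intron on 3 days with signals of 133, 121 and 124, close to each other. Nxf1, the main export receptor for messenger RNA, met its last intron on the 3 later days with signals of 42.7, 52.9 and 50.5. Cmc1, a mitochondrial assembly gene, had 3 very wide peaks. That of E13.5 spanned 34650 bp around intron 1 with 63 exonic bases, and those of E15.5 and E17.5 spanned 50213 bp and 50080 bp around intron 2 with 313 and 180.

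Mbd5, which encodes a protein of the methyl-CpG-binding domain family, was the position on 4 days nearest to wholly intronic. Its peaks lay at the start of intron 8 of 9, a stretch of 14920 bp, and 2 of them reached into the exon before it by 190 and 25 bases. The signals were 116, 271, 379 and 390 in the same order, and the ranks 222, 342, 239 and 2010. The signal was lowest at E11.5 and the rank weakest at E17.5, over widths of 499, 276, 228 and 334 bp. At 3 positions the peaks were wholly intronic on each of 3 days: Il31ra above, the predicted gene Gm26573 (signals 170, 252 and 48.9 on the same 3 days) and Peak1, a kinase-like scaffold gene (1723, 493 and 385 at E11.5, E13.5 and E17.5), whose peaks lay 11 to 18 bp from an exon and which was named after its values were seen.

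Of the 2756 hosts, 2125 (77.1%) had members on 1 day, 501 on 2 days, 106 on 3 and 24 on all 4. Ordered by mean rank, the hosts of 4 days began with Mbd5, Gtf2e2, Pdia3, Ubap2l, Smarca4, Safb2, Pdia6, Syne2, Stx4a and Ilkap. Gtf2e2 held 6 members, each exon to exon, and Stx4a, a membrane fusion gene, 5 exon-to-exon members of 7. Syne2, which encodes a giant protein linking nucleus and cytoskeleton, held 13 members, of which 7 were wholly intronic. Smarca4, the ATPase of a chromatin remodeling complex, held 8 members, 4 of them exon to exon and 1 wholly intronic. Safb2 and Pdia6 held 5 and 3 exon-to-exon members. Wholly intronic hosts and exon-to-exon hosts overlapped in 192 genes, 15.3% of 1256 and 14.1% of 1362. Of all 20684 protein-coding genes with an intron, 6.51% hosted an exon-to-exon member on any day and 5.63% a wholly intronic one. Both shares of overlap thus lay above the shares over all these genes. The overlap counts hosts of every gene type, and gene length was not matched.

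Hosts of members often had a peak in an exon on the same day. Of the protein-coding hosts, 37.8%, 41.0%, 52.9% and 48.5% did on the 4 days in order, where 8.16%, 10.9%, 18.6% and 12.7% of all 20684 protein-coding genes with an intron had an exonic peak. For wholly intronic hosts the values were 30.6%, 34.1%, 50.1% and 37.7%, and for exon-to-exon hosts 51.9%, 45.3%, 56.1% and 51.7%. The levels of these genes in the input are not in the lists, so the part of expression was not tested.

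Hosts of wholly intronic members were longer genes than hosts of exon-to-exon members. Hosts of wholly intronic members had a median span of 50380 bp, those of exon-to-exon members 22770 bp, and all protein-coding genes with an intron 19380 bp. Of genes up to 10000 bp, 1.20% hosted a wholly intronic member on any day and 4.285% an exon-to-exon member. Of genes over 10000 and up to 30000 bp, 4.73% and 8.37% did, and of those over 30000 and up to 100000 bp, 9.28% and 7.68%. Of genes over 100000 and up to 300000 bp, 12.3% and 5.76% did. Of genes over 300000 bp, 10.9% and 2.65% did. Wholly intronic hosting was thus highest over 100000 and up to 300000 bp. Exon-to-exon hosting was highest over 10000 and up to 30000 bp and lower in each longer class. The rule leaves out hosts with 10 or more intronic peaks on a day, and its part in these shares was not tested.

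As background for host functions, 3.89%, 3.09%, 5.67% and 3.79% of the 20684 protein-coding genes with an intron hosted a member on the 4 days in order, and 12.8% on any day. For wholly intronic members these were 2.26%, 1.12%, 1.98% and 1.00%, and 5.63% on any day, and for exon-to-exon members 1.17%, 1.49%, 3.04% and 2.39%, and 6.51% on any day. The gene lists below were drawn up with earlier results of these data known, and several hold long genes, so their shares are descriptions beside that background. Lists tied to chromatin, motors and RNA binding had the highest shares. Lists of vessel and blood (10.7%), channel (15.9%) and interneuron genes (16.0%) had the lowest, near the 12.8% of all these genes. The strongest member of a gene is that with the smallest deposited p.

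**Figure D5:**
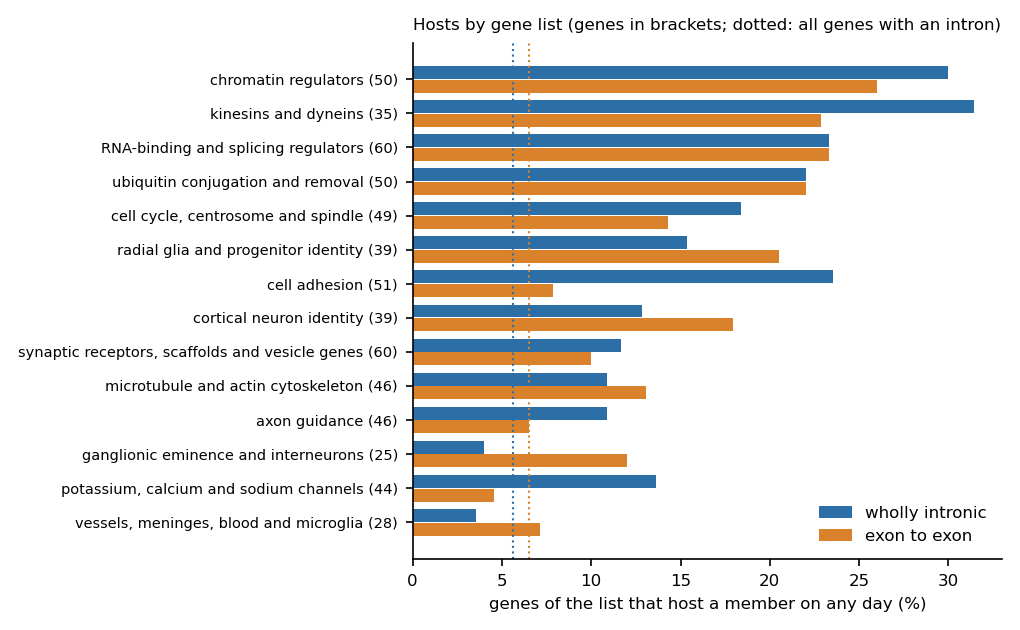
Percentage of the genes of each list that host a wholly intronic or an exon-to-exon member on any day (x axis), by list (y axis, number of genes in brackets), with the share of all protein-coding genes with an intron dotted (5.63% and 6.51%). Chromatin regulators and kinesins and dyneins have the longest wholly intronic bars, and cell adhesion genes a wholly intronic bar well beyond the exon-to-exon one.

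Chromatin regulators hosted members in 27 of 50 genes (54.0%), 15 of them wholly intronic and 13 exon to exon. The wholly intronic hosts numbered 9, 5, 3 and 0 on the 4 days in order, and the exon-to-exon hosts 3, 4, 7 and 2. Nsd1, a histone methyltransferase gene, had members on 3 days, the strongest a 50 bp peak in intron 2 at E11.5 (rank 242, signal 15.4). Smarca4 had its best rank, 448, at E13.5 with signal 24.2. The median gene of this list spans 92580 bp, a length at which the background above is higher than 12.8%: of all genes over 30000 and up to 100000 bp, 17.8% hosted a member.

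Kinesins and dyneins, the motors that move cargo along microtubules, hosted members in 16 of 35 genes (45.7%). Wholly intronic hosts numbered 7 at E11.5 and 1, 3 and 1 on the later days, and exon-to-exon hosts 1, 2, 6 and 3. Klc1, a kinesin light chain, had 2 members on each of the 4 days, 6 of its 8 exon to exon, with signal 96.6 for the strongest. Dync1h1, the heavy chain of cytoplasmic dynein, had 8 members at E15.5 and E17.5, 4 exon to exon and 2 wholly intronic. Kif14, a mitotic kinesin, had 2 wholly intronic members, the stronger with signal 120. Genes of the microtubule and actin cytoskeleton hosted members in 10 of 46 (21.7%): Dst, a cytoskeletal linker gene, on all 4 days with 4 of 7 exon to exon, and Ank2 and Myo10 with 7 wholly intronic members each.

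RNA-binding and splicing regulators hosted members in 27 of 60 genes (45.0%), 14 with each kind. At E11.5, 8 hosted wholly intronic members, among them Nova1, Srrm4, Dicer1 and Fmr1, and on the later days 1, 2 and 3. Hnrnpa2b1, an abundant nuclear RNA-binding protein, had 4 members, each exon to exon, 2 of them at E17.5 with signals of 4254 and 2859. Srrm2, a splicing coactivator gene, and Celf3 followed with 2 exon-to-exon members each. Both kinds of member were thus met in this group.

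Ubiquitin genes hosted members in 19 of 50 and cell cycle, centrosome and spindle genes in 18 of 49 (36.7%). Usp24, a deubiquitinase, had 14 members on 3 days, 13 of them wholly intronic, and Ubr4, a ubiquitin ligase, 4. Cdk5rap2, a centrosome protein needed for progenitor division, had 9 members on 4 days, 7 of them wholly intronic, the strongest in intron 28 at E13.5 with signal 110. Mki67, the proliferation marker, had 2 members, the stronger at rank 223 of E13.5, and Cenpf, a kinetochore protein gene, 5.

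Identity genes of cortical cells hosted members at a middle level. Of the genes matched in the annotation, radial glia and progenitor genes did so in 12 of 39 (30.8%) and cortical neuron genes in 10 of 39 (25.6%). Eomes, the transcription factor of intermediate progenitors also called TBR2, had an exon-to-exon member at rank 39 of E13.5 over its last intron (signal 65.0, 522 exonic bases) and a wholly intronic one at E11.5. Emx2, a patterning gene, had an exon-to-exon member with signal 312 at E11.5. Tcf7l1 had 6 members, 3 of them wholly intronic. Fezf2, which specifies deep-layer projection neurons, had 5 members on 3 days, each exon to exon, Myt1 had 4 and Foxp4 7, of which 5 were wholly intronic.

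In several groups of neuronal contact and signaling more genes hosted wholly intronic than exon-to-exon members. Cell adhesion genes hosted them in 12 of 51 and exon-to-exon members in 4, axon guidance genes in 5 and 3 of 46, and channel genes in 6 and 2 of 44. Among 60 synaptic genes the numbers were 7 and 6. These lists have median gene spans of 230400 to 550800 bp, and genes of that length had the same order in the background above. Named hosts were Cdh8, Ctnna1 and Cdh2 among adhesion genes, Ntng2 with 8 members, Dab1 and Srgap2 among guidance genes, and Kcnip1, Ryr3 and Cacna1b among channels. Dlg4, a postsynaptic scaffold gene, had 3 exon-to-exon members, the strongest with signal 15.3, and Shank1 4 wholly intronic ones.

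Genes of other tissue and of ganglionic eminence hosted members at shares near the 12.8% of all protein-coding genes with an intron. Of 28 vessel, meninges, blood and microglia genes 3 hosted a member (10.7%): Csf1r, Col1a1 and Fn1. Of 25 ganglionic eminence and interneuron genes 4 hosted a member (16.0%), and 3 hosted exon-to-exon members: Lhx6, Calb2 and Npy. As a check of the tissue, 9 of 14 cortex markers, among them Emx1, Pax6 and Tbr1, had an exonic peak on some day, 4 of 6 vessel and meninges markers, 1 of 5 blood and microglia markers and 3 of 6 ganglionic eminence markers did. Their part in the hosting shares was not tested.

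The strand opposite to genes held few peaks. Peaks that were antisense to a gene and in no exon on that gene's strand numbered 131, 154, 226 and 148 on the 4 days in order (2.01%, 2.62%, 2.202% and 2.33% of the lists). Wholly intronic members numbered 1112, 501, 910 and 358 on the same days. Of the wholly intronic members, 56 lay within an exon of the opposite strand.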

How the data were processed

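The authors sequenced RIP and input RNA with a stranded kit, and each deposited list gives peaks of 1 day and strand with a score, a signal, a p-value and a q-value per peak, none above 0.01 for q. Per the submitters' processing notes, build mm10 was used with Cufflinks 2.2.1, bedtools 2.17.0, TopHat and TopHat2 2.0.9. The peak caller, its normalization and whether its test was one-sided: not given in the sources used here. The score was not used for results. Genes, exons and coding bases came from GENCODE vM21 (GRCm38). Distance was to any same-strand exon. Shares carry exact Clopper-Pearson 95% intervals, and no test was run, since the lists hold no replicate values; 0 columns were left unmapped.

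Placement of peaks was checked on simulated peaks. Python 3.11.15, numpy 2.4.6, pandas 2.3.3, SciPy 1.17.1 and matplotlib 3.10.9 were used. Named by rule were the protein-coding hosts of the 5 smallest p per day, up to 10 hosts on all 4 days by mean rank, up to 10 positions shared by 3 or more days, up to 3 hosts per gene list by number of days and then rank, and hosts with 9 or 10 intronic peaks. Other names were chosen after their values were seen. Some named hosts and 1 gene list are not reported here. The members and lists were chosen with earlier results of these data known, and the sorting into kinds, the printed sequences and the high-signal members after values were seen. Alternatives changed the limit of 10, the strength of peaks, the annotation, the transcript and the overlap.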

Additional observations from a re-analysis of the deposited data

How the results depend on the processing

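Of 92 alternative values, 28 lay within the 95% interval of the reported value and 64 outside it; values follow in the order of the days, E11.5 first. The scattered share of all peaks was 17.75%, 14.84%, 15.6% and 16.12% with fewer than 5 intronic peaks per host, and 31.38%, 22.53%, 22.94% and 20.86% with fewer than 20. It was 21.56%, 17.1%, 15.64% and 14.63% among the stronger 50% of peaks, and 17.61%, 19.9%, 13.15% and 11.5% among the strongest 10%. With exons of basic transcripts it was 28.82%, 20.64%, 23.88% and 21.43%, and with no same-strand exon touched 17.03%, 8.533%, 8.865% and 5.646%. Peaks of at most 5000 bp, or the limit applied to every gene around the midpoint, kept it within the interval on all 4 days. The first-intron share was 8.896% at E11.5 by the transcript with most exons, and 11.01% and 14.58% on the last 2 days for wholly intronic members. The share within 500 bp of an exon was 60.86%, 74.16%, 76.61% and 83.62% from the nearer edge, 40.71%, 48.78%, 51.12% and 56.49% with exons of the reference transcript, 33.36%, 36.93%, 39.56% and 43.58% for wholly intronic members, and 59.53% and 66.59% among stronger peaks of the last 2 days. The share overlapped on another day was 8.119%, 10.77%, 8.608% and 12% at an overlap of at least 50%, 6.385%, 7.186%, 5.824% and 9.777% for wholly intronic members, and 17.56% and 24.57% among stronger peaks of the last 2 days. With 1 peak per host, the wholly intronic share of members was 52.91%, 32.99%, 29.29% and 24.04% and the exon-to-exon share 27.71%, 45.07%, 49.71% and 59.19%. Among stronger peaks the wholly intronic share was 37.98% and 28.45% on the last 2 days, and the exon-to-exon share 19.89% on the first day and 41.72% and 55.39% on the last 2. The strongest 10%, the wholly intronic and the 1-peak settings, and those on kinds, were added after seeing the data; the cause of the shifts was not tested. No paired analysis was possible because the lists hold no values per replicate, and leaving out a replicate was not possible for the same reason. Depth is unknown, and signal and p of weak peaks limit what a list can hold.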
